A study of Homo sapiens with 30 samples.

Results

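The 10 genes described here are NF-κB subunits, negative regulators and target genes, taken by name from the deposited table of 57992 genes. They are the subunit genes NFKB1, NFKB2 and RELB, the inhibitor genes NFKBIA and TNFAIP3, the signaling and survival genes BIRC3, TRAF1 and IER3, and CXCL8 and ICAM1, which encode a secreted and a surface protein. The list is one of names and sets no threshold on measured values, but it was drawn up with earlier results of these data known. All are protein-coding, and each value sums over a whole gene. On GRCh38 (GENCODE release 29) they span chr4:102501329-102617302 (NFKB1), chr10:102394110-102402529 (NFKB2), chr19:45001430-45038198 (RELB), chr14:35401511-35404749 (NFKBIA), chr6:137867188-137883312 (TNFAIP3), chr11:102317450-102339403 (BIRC3), chr9:120902393-120929173 (TRAF1), chr6:30743199-30744554 (IER3), chr4:73740506-73743716 (CXCL8) and chr19:10270835-10286615 (ICAM1). Their expression was measured by RNA sequencing in 30 libraries from 2 human cell lines, in 10 groups of 3 libraries each. Omomyc, the agent tested, is a mutant of the MYC dimerization domain that pairs with MAX and with MYC and occupies E boxes, the CACGTG elements that MYC/MAX dimers bind.

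HCT116 is a colorectal carcinoma line. It was left untreated or given Omomyc at 2 or 10 μM for 6 or 24 h. The lower of these doses is 2 μM in the labels and 2.5 μM in the study's methods, and the labels' value is used as the name of the group. Ramos is a Burkitt's lymphoma line with a MYC translocation. It was left untreated or given Omomyc at 0.5 or 2.5 μM for 6 or 24 h. A time tag in the labels reads 4 h for libraries whose titles give 24 h, and the titles were followed. The methods describe ProteoJuice, a protein transfection reagent, for HCT116, but do not say whether the untreated HCT116 cells received it or how Omomyc was given to Ramos cells for sequencing. Under those methods the mix was applied in a small volume of Opti-MEM medium, and medium with serum was added for longer incubations. Whether the untreated HCT116 cells had the same changes of medium is not given either. Effects of Omomyc, of the reagent and of the changes of medium therefore cannot be told apart here. Whether the Omomyc was made in bacteria or synthesized is not given for these libraries. Each line had a single untreated group with no time of its own, so the 4 treated groups of a line were all set against the same 3 libraries. Nothing says that the 3 libraries of a group came from separate cultures, and p-values measure the spread between these libraries.

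NF-κB is a family of dimeric transcription factors built from RELA, RELB, REL and the products of NFKB1 and NFKB2. In resting cells IκB proteins such as the NFKBIA product hold the dimers in the cytoplasm, and signals from cytokine, Toll-like or antigen receptors lead to IκB degradation and nuclear entry of the dimers. Several target genes, NFKBIA and TNFAIP3 among them, encode proteins that shut the pathway off again. NF-κB is known for its part in B cell survival and in the chemokine output of epithelial cells.

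The identity of the lines was checked against marker genes. Of 8 epithelial markers, EPCAM, CDH1, KRT8, KRT18 and CDX2 were present in HCT116, where the summed RPKM (reads mapped to a gene, scaled to its length and to the library) of the list was 1037 to 1635 over 15 libraries, while CDX1 was at 0 in every library, VIL1 reached at most 0.0602 RPKM and KRT20 at most 0.748 RPKM. The summed RPKM of 8 B cell markers was 1607 to 1764 in Ramos and 0.755 to 3.29 in HCT116, and the epithelial sum in Ramos was at most 1.18. The read depth of the libraries is unknown, since only RPKM were deposited. The noncoding RNAs RN7SL1, RN7SL2 and RN7SK held 15.5% to 42.5% of the summed RPKM in HCT116 and 26.3% to 38.9% in Ramos. In HCT116 it was 15.5%, 21.5% and 16.1% in the untreated libraries, 25.5% to 42.5% in all 6 at 6 h and 19.3% to 24.9% at 24 h. In Ramos it was 33.9% to 38.9% untreated, 29.6% to 33.4% at 6 h, 31.6% to 35.2% after 0.5 μM for 24 h and 26.3% to 29.5% after 2.5 μM for 24 h. The part of this in the changes reported for each group was not tested beyond the scaling alternatives given below. The highest share was that of the third library of HCT116 at 10 μM for 6 h, which stood apart from the others of its group in several values given below. Each library's RPKM was used as deposited, and an equal sum of RPKM per library was run as an alternative.

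RefSeq promoters on GRCh38.p14 were at hand for 8 of the 10 genes, as 13 windows ending at the base before a transcription start, each 250 bases long. They were searched on both strands for the κB consensus, a motif of 10 bases, for the shorter GGAANNNCC, which overlaps many matches of the consensus, and for the E box CACGTG. The κB consensus was in 6 of the 13 windows and in 9.96% of all 35116 windows of this length. Either κB form was in 8 of the 13 windows, which belong to 7 genes, and in 22.1% of all windows. The E box was in 1 of the 13 windows, that of TNFAIP3, and in 6.34% of all windows. A match is a description of the sequence and not a binding site, and no window of TRAF1 held any of the 3 motifs. No window was at hand for RELB and IER3, which also rose at 6 h in HCT116 at both doses. The sequences of CXCL8, NFKBIA, TNFAIP3 and BIRC3 are shown because these genes moved together at 6 h in HCT116 while TNFAIP3 and BIRC3 moved the other way in Ramos. They are written 5′ to 3′ along the gene, with κB matches of either form in capitals and, in TNFAIP3, the E box in capitals as well. The windows are chr4:73740319-73740568 on the plus strand for CXCL8, chr14:35404750-35404999 on the minus strand for NFKBIA, chr6:137867009-137867258 on the plus strand for TNFAIP3 and chr11:102317234-102317483 on the plus strand for BIRC3.
CXCL8: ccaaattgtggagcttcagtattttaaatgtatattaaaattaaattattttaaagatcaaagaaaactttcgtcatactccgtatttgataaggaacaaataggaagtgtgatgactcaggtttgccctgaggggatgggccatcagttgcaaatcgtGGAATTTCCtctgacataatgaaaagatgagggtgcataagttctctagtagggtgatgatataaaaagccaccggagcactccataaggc
NFKBIA: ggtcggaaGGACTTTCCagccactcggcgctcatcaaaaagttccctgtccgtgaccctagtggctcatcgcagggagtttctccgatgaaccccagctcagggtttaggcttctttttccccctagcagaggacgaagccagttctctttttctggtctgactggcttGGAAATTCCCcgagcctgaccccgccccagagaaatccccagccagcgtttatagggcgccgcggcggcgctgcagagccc
TNFAIP3: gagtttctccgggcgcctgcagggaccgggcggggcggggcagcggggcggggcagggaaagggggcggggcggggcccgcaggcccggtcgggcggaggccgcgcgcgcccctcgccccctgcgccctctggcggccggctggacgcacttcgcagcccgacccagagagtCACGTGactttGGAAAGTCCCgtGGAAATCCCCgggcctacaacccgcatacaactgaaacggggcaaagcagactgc
BIRC3: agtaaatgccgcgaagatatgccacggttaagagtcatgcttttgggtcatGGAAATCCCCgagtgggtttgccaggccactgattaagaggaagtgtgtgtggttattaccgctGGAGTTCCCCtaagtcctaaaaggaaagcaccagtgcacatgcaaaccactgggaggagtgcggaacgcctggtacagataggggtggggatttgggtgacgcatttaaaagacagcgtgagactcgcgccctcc

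The CXCL8 window held 1 match to GGAANNNCC, from base −91 to −83 before the start. In NFKBIA a consensus match lay at −81 to −72 and a second match, to the shorter form, at −242 to −234. The TNFAIP3 window held 2 consensus matches, at −67 to −58 and −55 to −46, and its E box lay just upstream at −78 to −73. Both consensus matches lay inside the GENCODE span of the gene given above. In BIRC3 the matches lay at −199 to −190 and −135 to −126. NFKB1, NFKB2 and ICAM1 also had κB matches. Positions count from RefSeq starts, and several windows run into the GENCODE gene spans given above, that of ICAM1 lying wholly inside its own.

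The first comparison asks how the lines differed before treatment. Untreated Ramos cells held more RNA of 8 of the 10 genes and untreated HCT116 cells more of 2, IER3 and CXCL8 (adjusted p of limma's test with Benjamini-Hochberg adjustment under 0.05). TRAF1, among the 8, and CXCL8 passed the filter of a mean of 0.5 RPKM only through the line in which each is high. Over all genes tested, 45.7% were higher in HCT116 and 39% lower, so calls were common in this comparison. BIRC3, an inhibitor of apoptosis and ubiquitin ligase, was at 1.74, 1.87 and 1.99 RPKM in HCT116 and at 109.5, 99.8 and 100.4 in Ramos, a 55.4-fold difference. TRAF1, a signaling adaptor of TNF receptors, was at 0.289 ± 0.0401 RPKM in HCT116 and 25.7 ± 1.6 in Ramos (SD, n = 3), an 88.7-fold difference. The early response gene IER3 lay the other way, at 219.7 ± 16.7 RPKM in HCT116 and 1.82 ± 0.176 in Ramos, 120.8-fold higher in HCT116. CXCL8, the neutrophil chemokine interleukin 8, was at 1.02 ± 0.315 RPKM in untreated HCT116 and was listed at 0 in 2 of the 3 untreated Ramos libraries, so no fold is given. NFKBIA was 5-fold, TNFAIP3 6.66-fold, RELB 7.68-fold and ICAM1 14.9-fold higher in Ramos, and the smallest differences were those of NFKB1 (2.98-fold) and NFKB2 (2.02-fold). These folds use RPKM as deposited, whose sum was 593633 to 660769 in untreated HCT116 and 879661 to 973736 in untreated Ramos. Over 16 alternatives the log2 difference (HCT116 minus Ramos) was −1.575 to −0.976 for NFKB1 and −1.054 to −0.425 for NFKB2. The main fit gave −1.54 and −0.99, and both genes stayed called.

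The main question was how Omomyc changed these genes. In HCT116 after 6 h the same 6 genes, RELB, NFKBIA, TNFAIP3, BIRC3, IER3 and CXCL8, rose at both doses and none of the 9 genes tested fell. At 24 h none of the 6 was called at 10 μM, by limma with Benjamini-Hochberg adjustment. In Ramos after 6 h RELB and NFKBIA rose, as in HCT116, whereas TNFAIP3, BIRC3, TRAF1 and NFKB1 fell at both doses. TRAF1 in HCT116 and CXCL8 in Ramos were under the filter of a mean of 0.5 RPKM in the comparisons with untreated cells and were not in the fit. In bulk RNA a lower level in every cell and a smaller number of expressing cells cannot be told apart.

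For 2 μM at 6 h in HCT116, 6 of the 9 genes tested were called higher and 0 lower, against 15.5% higher and 31.8% lower of all genes tested. By limma without adjustment, 7 of the 9 were higher and 0 lower at p under 0.05. The median log2 fold change was 0.78 over the 9 genes and −0.12 over all genes. For 10 μM at 6 h the count was again 6 higher and 0 lower, against 8.84% and 21.2% of all genes, with unadjusted counts of 7 and 0. The background counts moved when single libraries were left out. The 1307 higher and 3132 lower genes became 2965 and 4600 without 10 μM replicate 3, and 600 and 1285, 589 and 1464 or 509 and 1304 without untreated replicate 1, 2 or 3. When the libraries were brought to an equal sum of RPKM, the median over all genes moved from −0.12 to −0.42 at 2 μM and from −0.11 to −0.56 at 10 μM, and the share of called genes that were higher moved from 32.7% to 6.76% and from 29.4% to 4.29%. The 6 genes stayed called higher at 2 μM under that scaling, and RELB, TNFAIP3 and CXCL8 did at 10 μM.

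The largest change was that of CXCL8. Its RPKM was 1.12, 0.671 and 1.28 in the untreated HCT116 libraries and 28.5, 32.6 and 20.7 after 2 μM for 6 h. After 10 μM for 6 h it was 9.28, 12.2 and 19 RPKM. Every treated library at 6 h was above every untreated one, and the 10 μM libraries were all below the 2 μM ones. The mean was 26.6-fold higher than untreated at 2 μM (log2 fold change of RPKM + 0.5 of 4.19 ± 0.19 SE, adjusted p = 1.89e-06, limma) and 13.2-fold higher at 10 μM (3.16 ± 0.27, adjusted p = 0.000548). At 24 h the values were 1.78, 2.02 and 2.48 RPKM at 2 μM, all above the untreated libraries (log2 fold change 0.78 ± 0.18, adjusted p = 0.0137). At 10 μM for 24 h they were 1.17, 1.03 and 0.688 RPKM and overlapped the untreated values (−0.05, 95% interval −0.51 to 0.41). In Ramos the highest of the 15 libraries was at 0.0462 RPKM, and 10 of them were listed at 0.

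Among the inhibitors, NFKBIA, which encodes IκBα, was at 16.2, 14.6 and 15.5 RPKM in untreated HCT116 and at 32.8, 34 and 30.2 after 2 μM for 6 h. After 10 μM for 6 h it was at 32.7, 34.9 and 28.9 RPKM. The groups did not overlap, and the means differed 2.09-fold at 2 μM (log2 fold change 1.04 ± 0.07, adjusted p = 1.99e-05, limma) and 2.08-fold at 10 μM (1.03 ± 0.11, adjusted p = 0.00109). At an equal sum of RPKM the 10 μM change was 0.55 with an adjusted p of 0.0596. By 24 h NFKBIA was at 16.1 ± 1.5 RPKM after 2 μM and 15.2 ± 0.231 after 10 μM (SD, n = 3), within the range of the untreated libraries or overlapping it. In Ramos it was at 83.8, 73.2 and 74.6 RPKM untreated, at 91.1, 99 and 106.4 after 0.5 μM for 6 h and at 96.1, 97.1 and 107.3 after 2.5 μM for 6 h. All 6 treated libraries were above the untreated ones, with changes of 0.35 ± 0.07 (adjusted p = 0.00767) and 0.37 ± 0.06 (adjusted p = 0.0034) on the log2 scale.

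TNFAIP3 encodes A20, a ubiquitin-editing enzyme that ends signaling upstream of the IκB kinase. In HCT116 it was at 1.25, 1.02 and 0.823 RPKM untreated, at 3.44, 2.52 and 3.56 after 2 μM for 6 h and at 3.23, 3.35 and 2.67 after 10 μM for 6 h. The treated libraries at 6 h were all above the untreated ones, 3.09-fold and 2.99-fold in the mean, with log2 fold changes of 1.26 ± 0.16 (adjusted p = 0.000352, limma) and 1.23 ± 0.16 (adjusted p = 0.00225). In Ramos the direction was the opposite. TNFAIP3 was at 7.34, 7.04 and 6.18 RPKM untreated, at 3.1, 3.58 and 3.51 after 0.5 μM for 6 h and at 3.4, 3.15 and 2.7 after 2.5 μM for 6 h. It fell by 0.91 ± 0.11 (adjusted p = 0.000555) and by 1.04 ± 0.11 (adjusted p = 0.000329) on the log2 scale, and no treated library reached the lowest untreated one. At 24 h the 0.5 μM group was at 6.55 ± 0.888 RPKM, overlapping untreated, whereas the 2.5 μM libraries, at 3.77, 3.92 and 3.72, were still below it (−0.77 ± 0.09, adjusted p = 0.00747). A gene annotated on the other strand of TNFAIP3, AL357060.1, reached at most 0.375 RPKM in HCT116 and 1.43 in Ramos. Genes on the other strand of IER3 and ICAM1 reached at most 0.396 and 0.459 RPKM. The kit is stranded, but whether the counting used the strand is not given.

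Of the subunit genes, RELB, whose product acts mainly with that of NFKB2 in the noncanonical pathway, rose in both lines. In HCT116 it was at 3.64, 2.86 and 3.18 RPKM untreated, at 9.55, 6.96 and 8.61 after 2 μM for 6 h and at 11.4, 8.83 and 7.82 after 10 μM for 6 h. This was 2.59-fold and 2.9-fold above untreated (log2 fold changes 1.25 ± 0.13 and 1.39 ± 0.16, adjusted p = 0.000136 and 0.00163, limma). In Ramos it was at 24.4, 24.2 and 25.8 RPKM untreated and at 34.4, 33.5 and 39.4 after 0.5 μM for 6 h. After 2.5 μM for 6 h it was at 36.9, 34.6 and 32.5 RPKM. The rise was 1.44-fold and 1.4-fold (adjusted p = 0.00108 and 0.000736), and the groups did not overlap. At 24 h RELB was not called in either line, at 3.37 ± 0.827 and 2.69 ± 0.397 RPKM in HCT116 and at 26.5 ± 1.37 and 28.1 ± 1.28 in Ramos for the lower and the higher dose (SD, n = 3).

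NFKB1, the gene of p105 and p50, was called lower in Ramos at 6 h at both doses. It was at 46.1, 44.7 and 42.3 RPKM untreated, at 34.4, 34.4 and 32.8 after 0.5 μM and at 31.5, 30.5 and 31.2 after 2.5 μM. It fell by 0.38 ± 0.05 (adjusted p = 0.00122, limma) and by 0.51 ± 0.05 (adjusted p = 0.0002) on the log2 scale, without overlap. In HCT116 it was at 14.7, 14.9 and 15.1 RPKM untreated and at 17.5, 17.2 and 16 after 2 μM for 6 h, a difference of 0.17 on the log2 scale that was not called (95% interval 0.02 to 0.33, adjusted p = 0.0631). It was called higher under 2 of 16 alternatives, with an adjusted p down to 0.00745. Among these was the fit without 2 μM replicate 3 (0.21, adjusted p = 0.0418). At an equal sum of RPKM its value was −0.16 and was not called. The 10 μM libraries at 6 h were at 16.2, 15.3 and 10.2 RPKM, and the low value is that of the library named above. NFKB2, the gene of p100 and p52, was at 19.9, 21.3 and 21.8 RPKM in untreated HCT116 and at 21.9, 20.4 and 28.5 after 2 μM for 6 h. After 10 μM for 6 h it was at 28.3, 29.5 and 21.8 RPKM, the lowest again being the third library. The 10 μM difference was 0.32 (adjusted p = 0.104), and without that library it was 0.46 and was called (adjusted p = 0.000952). In Ramos NFKB2 fell by 0.2 ± 0.06 after 2.5 μM for 6 h (adjusted p = 0.0347), a call that was lost at an equal sum of RPKM (−0.06, adjusted p = 0.469) and without any 1 of 5 of the 6 libraries, with adjusted p of 0.0791 to 0.118. Those were replicates 1 and 2 of the untreated group and all 3 treated replicates.

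BIRC3 and TRAF1 were the members of the survival group that fell in Ramos. BIRC3 was at 109.5, 99.8 and 100.4 RPKM untreated, at 84, 78.6 and 73.7 after 0.5 μM for 6 h and at 74.4, 74.3 and 74.5 after 2.5 μM for 6 h. It fell by 0.39 ± 0.06 and 0.47 ± 0.05 on the log2 scale (adjusted p = 0.00231 and 0.000218, limma). In HCT116 it rose, from 1.74, 1.87 and 1.99 RPKM to 3.76, 3.75 and 3.21 after 2 μM for 6 h (0.78 ± 0.12, adjusted p = 0.000696). After 10 μM for 6 h it was at 2.76, 3.25 and 3.76 RPKM (0.66 ± 0.14, adjusted p = 0.0134). That call was lost without untreated replicate 1 (adjusted p = 0.0645) or 2 (adjusted p = 0.0559) and at an equal sum of RPKM (0.25, adjusted p = 0.285). TRAF1 in Ramos was at 27.5, 24.9 and 24.6 RPKM untreated, at 18.7, 15.9 and 16.2 after 0.5 μM for 6 h and at 12.9, 15 and 12.5 after 2.5 μM for 6 h. The treated libraries were all below the untreated ones, and the gene fell by 0.59 ± 0.08 and 0.91 ± 0.08 on the log2 scale (adjusted p = 0.00102 and 0.000136). In HCT116 TRAF1 was at 0.289 ± 0.0401 RPKM untreated, at 0.234 ± 0.0471 and 0.212 ± 0.0909 after 2 and 10 μM for 6 h, and at 0.701 ± 0.188 and 0.51 ± 0.121 after 24 h. All 6 libraries at 24 h were above the 3 untreated ones. The exact permutation test, two-sided, gave p = 0.1 at either dose, the smallest that 3 against 3 libraries allow.

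IER3, an early response gene linked to cell survival, was the most abundant of these genes in HCT116. It was at 200.9, 232.6 and 225.6 RPKM untreated, at 348.4, 367.3 and 348 after 2 μM for 6 h and at 328.7, 385.5 and 308.9 after 10 μM for 6 h. The rise was 1.61-fold and 1.55-fold, with every treated library above every untreated one (log2 fold changes 0.69 ± 0.07 and 0.63 ± 0.12, adjusted p = 0.000135 and 0.00964, limma). The 10 μM call was lost without untreated replicate 1 (adjusted p = 0.0592) and at an equal sum of RPKM (0.14, adjusted p = 0.603). In Ramos it was between 1.43 and 2.81 RPKM in all 15 libraries. At 0.5 μM all 3 libraries at 6 h and all 3 at 24 h were above the untreated ones, by 1.36-fold and 1.46-fold in the mean, but neither difference was called (adjusted p = 0.0839 and 0.784). The 6 h difference was called with no trend on mean expression (adjusted p = 0.0416) and with all groups in one fit (adjusted p = 0.0468). ICAM1, an adhesion molecule, was not called in HCT116 in any comparison with untreated cells, where its group means lay between 1.34 and 1.58 RPKM. Its spread was widest after 10 μM for 6 h, at 1.48, 2.13 and 0.774 RPKM, and the 95% interval of that difference, −0.7 to 0.5 on the log2 scale, leaves room for a change of either sign. In Ramos ICAM1 was at 23.1, 21.8 and 22.8 RPKM untreated and at 27.4, 28.2 and 25.9 after 2.5 μM for 6 h, a rise of 0.26 ± 0.05 (adjusted p = 0.00748).

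**Figure D1:**
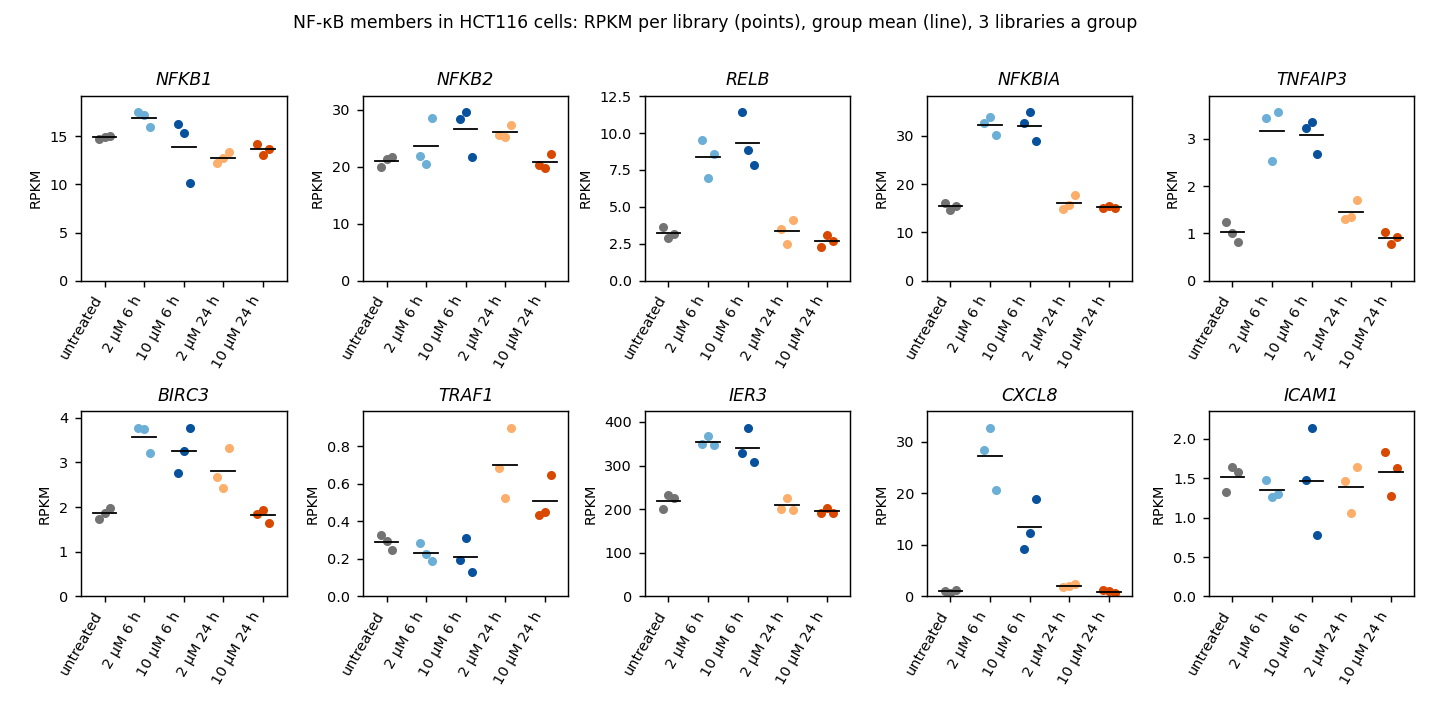
RPKM of the 10 genes (y axis, starting at 0, scaled per gene) in the 15 HCT116 libraries by group (x axis), with 1 point a library and a line at the mean of 3. RELB, NFKBIA, TNFAIP3, BIRC3, IER3 and CXCL8 stand above untreated in all 6 libraries at 6 h, and ICAM1 and NFKB2 overlap it at 6 h.

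**Figure D2:**
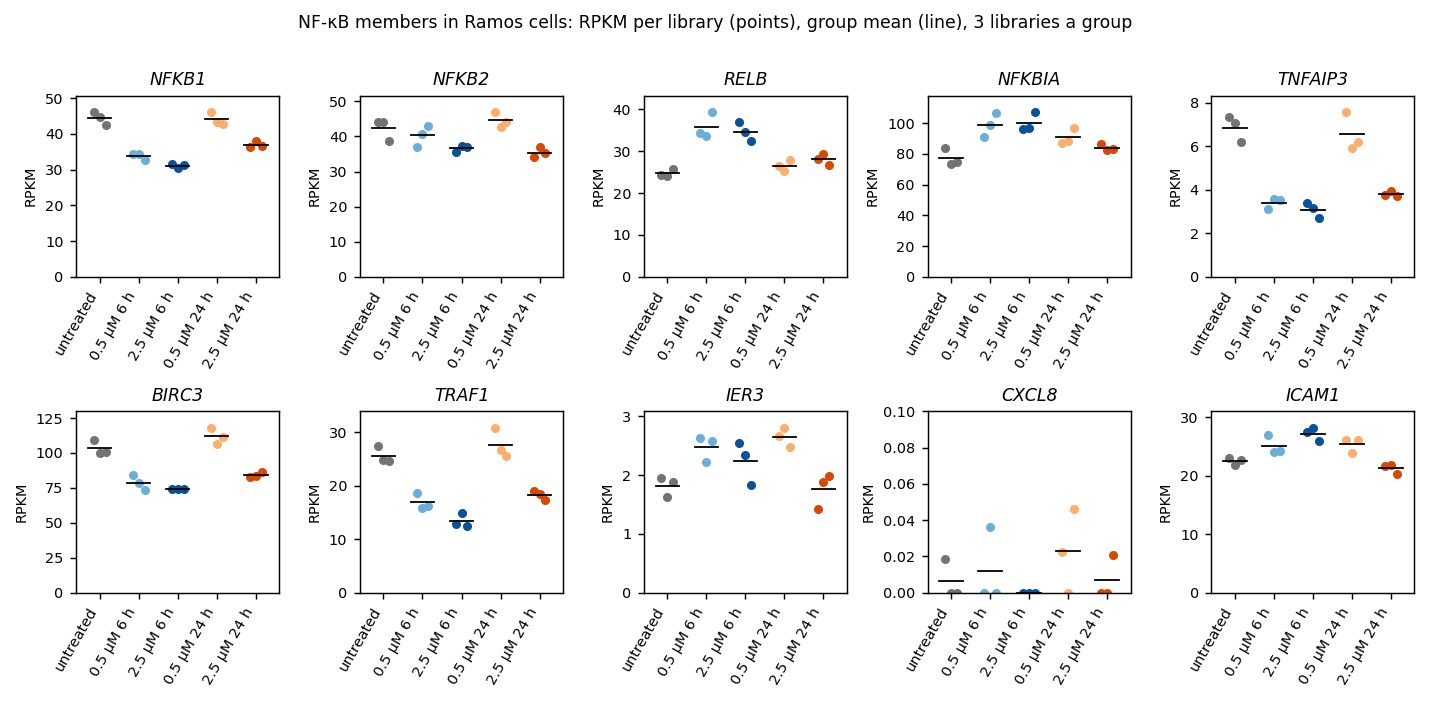
RPKM of the same genes in the 15 Ramos libraries, drawn in the same way. NFKB1, TNFAIP3, BIRC3 and TRAF1 lie below untreated in all 6 libraries at 6 h and, among the 24 h groups, after 2.5 μM but not after 0.5 μM, and CXCL8 never exceeds 0.0462 RPKM.

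In Ramos at 6 h, 2 of the 9 genes tested were called higher and 4 lower after 0.5 μM, against 13.8% higher and 9.73% lower of all genes. After 2.5 μM, 3 were higher and 5 lower, against 17.3% and 10.7% of all genes. The median log2 fold change over the 9 genes was −0.07 and −0.2, and that over all genes was 0.02 and 0.03. The 24 h groups differed from each other. After 0.5 μM for 24 h limma called 0 genes higher and 0 lower, against 0.0146% and 0% of all genes, and without adjustment 3 were higher and 0 lower at p under 0.05. After 2.5 μM for 24 h it called 0 higher and 4 lower, against 3.3% and 1.31% of all genes, with 1 and 5 without adjustment. Over all genes 449 were higher and 178 lower, and these counts became 42 and 49, 20 and 40 or 24 and 43 without treated replicate 1, 2 or 3. They became 292 and 108 without untreated replicate 1, 165 and 103 without replicate 2, 6 and 18 without the trend, and 5221 and 141 at an equal sum of RPKM. The 4 were NFKB1, TNFAIP3, BIRC3 and TRAF1, each of which had been lower at 6 h as well. BIRC3 was then at 83.1, 83.3 and 86.7 RPKM, TRAF1 at 19, 18.5 and 17.4 and NFKB1 at 36.3, 37.9 and 36.6, all below the lowest untreated library. TNFAIP3 stayed called without any single library. NFKB1 was lost without untreated replicate 1 or 2 or any 1 of the treated replicates (adjusted p of 0.0576 to 0.111), BIRC3 without any 1 of the treated replicates (0.0713 to 0.0904) and TRAF1 without treated replicate 2 (0.0523) or 3 (0.054), while NFKB2 was called lower without untreated replicate 3 (0.0175). The count was thus 2 without treated replicate 1 and 1 without treated replicate 2 or 3. At an equal sum of RPKM NFKB1 and BIRC3 were not called, and RELB (0.38, adjusted p = 0.00865) and NFKBIA (0.33, adjusted p = 0.00987) were called higher.

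In HCT116 after 2 μM for 24 h, 3 of the 9 genes tested were higher and 1 lower, against 16.6% and 10.8% of all genes. CXCL8 and BIRC3, at 2.67, 2.42 and 3.32 RPKM, were still above untreated. NFKB2 was at 25.5, 25.2 and 27.4 RPKM, also above it (log2 fold change 0.31 ± 0.06, adjusted p = 0.00598, limma). NFKB1 was below it at 12.2, 12.8 and 13.3 RPKM (−0.22 ± 0.06, adjusted p = 0.0243). The count of 4 was 2 without any 1 of the 3 untreated replicates or without 2 μM replicate 1, since BIRC3 and NFKB1 then missed the threshold. NFKB1 did so as well without 2 μM replicate 2, with adjusted p of 0.0503 to 0.0862 over these libraries, and BIRC3 without 2 μM replicate 3, with 0.0518 to 0.074. At an equal sum of RPKM the calls of NFKB2 (0.15, adjusted p = 0.192) and BIRC3 (0.34, adjusted p = 0.073) were lost. The CXCL8 call was lost under 2 of 15 alternatives, with an adjusted p up to 0.0791. After 10 μM for 24 h limma called 0 higher and 0 lower, against 19.5% and 15.7% of all genes, and without adjustment 0 were higher and 1, IER3, lower. IER3 was then at 190.4, 203.7 and 191.1 RPKM, a difference of −0.17 that was called without untreated replicate 1 (adjusted p = 0.0252). With libraries at an equal sum, limma called 3 genes lower, NFKB1 (−0.3), RELB (−0.39) and IER3 (−0.36).

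Ordered by mean level over the 5 groups of HCT116, RELB, NFKBIA, TNFAIP3, IER3 and BIRC3 had both 6 h groups on top, and the ranges of those groups overlapped each other for every one of the 5 genes. Below them a gap without overlap followed for RELB, NFKBIA, TNFAIP3 and IER3. BIRC3 had no such gap, because its 2 μM libraries at 24 h overlapped the 10 μM libraries at 6 h. CXCL8 had 4 separate steps, from 27.3 ± 6.03 RPKM at 2 μM and 6 h through 13.5 ± 4.97 at 10 μM and 6 h and 2.09 ± 0.354 at 2 μM and 24 h to the untreated and 10 μM 24 h groups, which overlapped at 1.02 ± 0.315 and 0.964 ± 0.249 (SD, n = 3). The order of TRAF1 was a different one, with both 24 h groups on top and the 6 h groups at the bottom, where they overlapped untreated. In Ramos NFKB1, TNFAIP3, BIRC3 and TRAF1 shared 1 order below the first 2 places. Untreated and 0.5 μM 24 h overlapped on top, followed after a gap by 2.5 μM 24 h, then 0.5 μM 6 h and last 2.5 μM 6 h. For BIRC3 the means were 112 ± 5.8 and 103.2 ± 5.46 RPKM on top and 84.4 ± 2, 78.8 ± 5.13 and 74.4 ± 0.123 below. For TRAF1 they were 27.7 ± 2.76 and 25.7 ± 1.6, then 18.3 ± 0.825, 16.9 ± 1.53 and 13.4 ± 1.33. NFKBIA and RELB had the 6 h groups on top and untreated at the bottom. Between them the 2.5 μM 24 h group stood above the 0.5 μM one for RELB and below it for NFKBIA. NFKBIA at 0.5 μM for 24 h, 91 ± 5.25 RPKM, still overlapped the 6 h group of that dose.

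**Figure D3:**
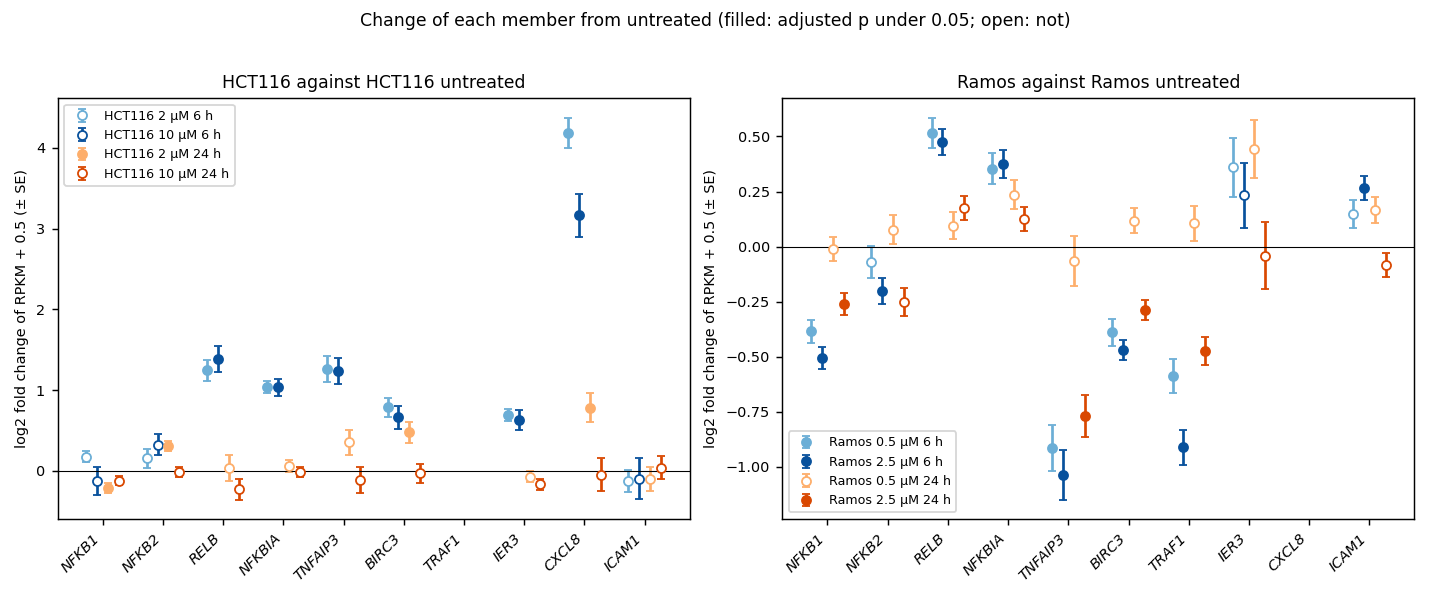
Log2 fold change of RPKM + 0.5 from untreated with its SE (y axis, a separate scale for each line) for each gene (x axis) in the 8 treated groups, filled where the adjusted p was under 0.05. CXCL8 reaches 4.19 in HCT116 at 2 μM and 6 h, and TNFAIP3 reaches −1.04 in Ramos at 2.5 μM and 6 h.

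The times were also set against each other. In HCT116 at 2 μM, 0 genes were higher at 24 h than at 6 h and 6 were lower, against 30.9% and 9.85% of all genes. Those 6 were NFKB1, RELB, NFKBIA, TNFAIP3, IER3 and CXCL8, and CXCL8 fell by 3.41 ± 0.16 on the log2 scale (adjusted p = 4.4e-06, limma). At 10 μM, 0 were higher and 6 lower, against 5.8% and 2.06% of all genes, and these were the 6 genes that had risen at 6 h. Over all genes 865 were higher and 308 lower. The counts became 73 and 98, 71 and 90 or 84 and 111 without replicate 1, 2 or 3 at 24 h, 277 and 162 without replicate 1 at 6 h, and 2514 and 992 without replicate 3 at 6 h. RELB fell by 1.62 ± 0.17 and TNFAIP3 by 1.35 ± 0.16. Without the third library at 6 h, which stood apart, NFKB2 was also called lower (−0.47, adjusted p = 0.00524). At 2 μM BIRC3 was called lower without replicate 3 at 24 h (−0.42, adjusted p = 0.0463), NFKB2 was called higher without replicate 3 at 6 h (0.29, adjusted p = 0.0237), and NFKB1 was not called at an equal sum of RPKM (adjusted p = 0.1). At an equal sum of RPKM RELB, TNFAIP3 and CXCL8 stayed called at 10 μM, and BIRC3 and IER3 were lost without 1 or more single replicates, BIRC3 with an adjusted p up to 0.146 and IER3 up to 0.0981. Those libraries were each of the 3 replicates at 24 h for both genes and replicates 1 and 2 at 6 h for BIRC3. In Ramos at 0.5 μM, 4 genes were higher at 24 h and 1 lower, against 11.9% and 13.5% of all genes. NFKB1, TNFAIP3, BIRC3 and TRAF1, lower at 6 h, were the 4 that rose, and RELB, higher at 6 h, fell. At 2.5 μM 3 were higher and 3 lower, against 12.7% and 10.4% of all genes. BIRC3 (0.18 ± 0.03), TRAF1 (0.44 ± 0.07) and NFKB1 (0.24 ± 0.04) rose, and RELB, NFKBIA and ICAM1 fell.

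Doses were compared within each time. At 6 h limma called 0 genes in either direction in HCT116, against 0% higher and 0% lower of all genes, and without adjustment 1, CXCL8, was lower at 10 than at 2 μM. Its difference was −1.02 (95% interval −1.62 to −0.43, adjusted p = 0.44), and without 10 μM replicate 3 it was −1.29 (adjusted p = 0.0473). The intervals of NFKBIA (−0.28 to 0.27) and TNFAIP3 (−0.42 to 0.36) include 0 and bound the dose difference of these genes. At 24 h in HCT116 it called 0 genes, against 0.14% and 0.0399% of all genes, and 4 were lower at 10 μM without adjustment. In Ramos at 6 h the count was 0 in each direction, against 0.185% and 0.244% of all genes, with 3 lower at 2.5 μM without adjustment, TRAF1 among them (−0.32, adjusted p = 0.187). At 24 h in Ramos 0 were higher and 6 lower at 2.5 than at 0.5 μM, against 2.39% and 1.86% of all genes. These were NFKB1, NFKB2, TNFAIP3, BIRC3, TRAF1 and ICAM1. TNFAIP3 fell by 0.7 ± 0.1 between the doses (adjusted p = 0.00888), with 7.56, 5.9 and 6.19 RPKM at 0.5 μM. ICAM1 was lost without any 1 of 5 libraries, replicates 1 and 3 at 0.5 μM and all 3 at 2.5 μM (adjusted p of 0.0848 to 0.161). NFKB1 was lost without replicate 1 at 0.5 μM or any 1 at 2.5 μM (0.0531 to 0.0966) and NFKB2 without replicate 3 at 2.5 μM (0.0613). The count of 6 was 3 without 2.5 μM replicate 3, 3 at an equal sum of RPKM and 0 when the prior variance had no trend on mean expression.

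Whether the lines responded differently was tested by an interaction term over 12 libraries, with HCT116 at 2 μM and Ramos at 2.5 μM. At 6 h the change was higher in HCT116 for 8 of the 10 genes and lower for 1, ICAM1, against 12.2% and 28.4% of all genes. CXCL8 and TRAF1 are among the 8, but passed the filter only through the line in which they are high. Of the 8 genes tested in both lines, 6 were higher and 1 lower. The difference was 2.3 ± 0.19 for TNFAIP3 on the log2 scale (adjusted p = 1.07e-05, limma) and 1.25 ± 0.1 for BIRC3 (adjusted p = 5.33e-06), whose changes had opposite signs in the lines. RELB and NFKBIA rose in both lines and differed by 0.77 ± 0.15 and 0.67 ± 0.1. CXCL8, which differed by 4.2 ± 0.24, was near 0 RPKM in Ramos, so its term holds the change in HCT116 alone. TRAF1 was under 1 RPKM in HCT116, where the added 0.5 damps any change. The ICAM1 difference, −0.39 ± 0.11 (adjusted p = 0.0139), was not called under median-ratio scaling (adjusted p = 0.0715) or with all groups in one fit (adjusted p = 0.18). That of IER3 (0.46 ± 0.14, adjusted p = 0.0187) was lost without HCT116 untreated replicate 1 (adjusted p = 0.0501) and at an equal sum of RPKM (adjusted p = 0.928), as were those of NFKB1, RELB and NFKBIA under the latter. NFKB2 was called without Ramos untreated replicate 3 (0.42, adjusted p = 0.0486) or HCT116 2 μM replicate 2 (0.45, adjusted p = 0.0219). At 24 h 5 genes were higher and 0 lower, against 6.81% and 9.51% of all genes, with unadjusted counts of 5 and 0. They were NFKB2, TNFAIP3 and BIRC3, tested in both lines, and TRAF1 and CXCL8. At an equal sum of RPKM NFKB2 was not called (0.2, adjusted p = 0.119), and NFKBIA (−0.43, adjusted p = 0.0196) and NFKB1 (−0.31, adjusted p = 0.0213) were called lower. The CXCL8 call was lost without any 1 of 5 libraries (adjusted p of 0.0519 to 0.0588), namely Ramos untreated replicate 1, the 3 Ramos replicates at 2.5 μM and HCT116 replicate 3 at 2 μM.

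**Figure D4:**
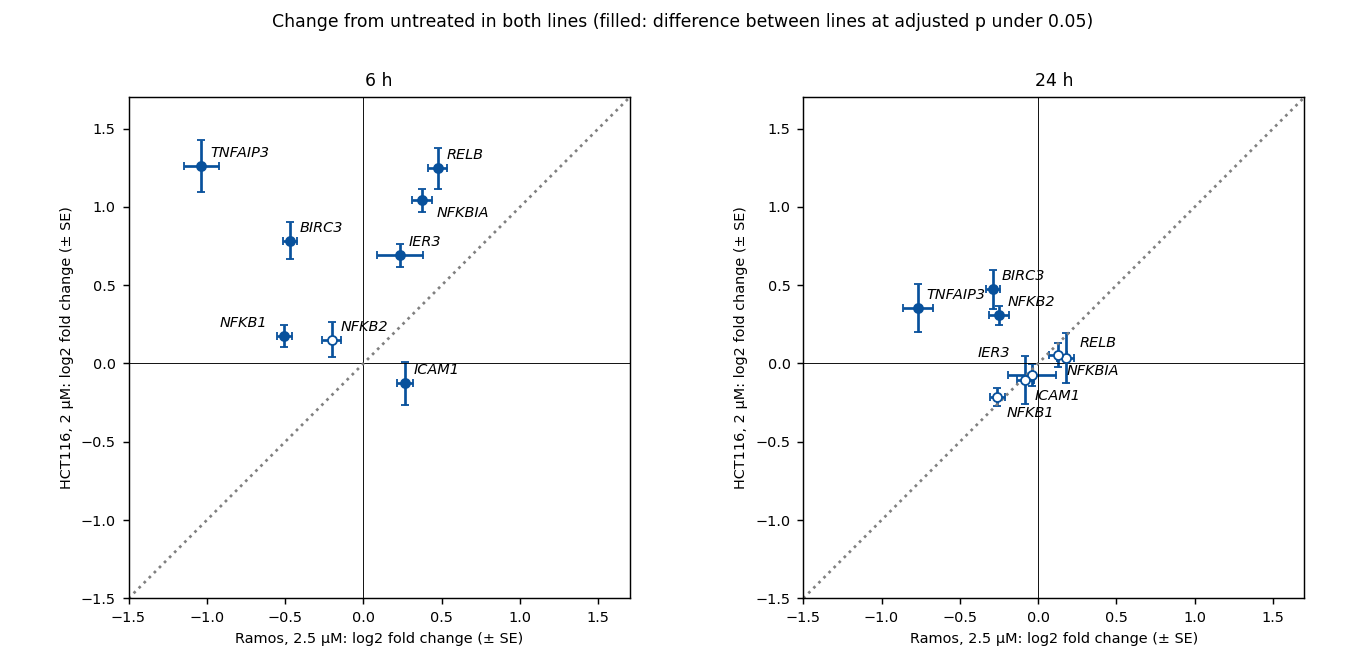
Log2 fold change from untreated in HCT116 at 2 μM (y axis) against that in Ramos at 2.5 μM (x axis) at 6 h and 24 h, with SEs, for the 8 genes tested in both lines, filled where the difference between the lines passed the threshold and with a dotted line of equal change. At 6 h TNFAIP3 (1.26 and −1.04) and BIRC3 (0.78 and −0.47) lie in the quadrant of opposite signs, and RELB and NFKBIA in that of rises in both.

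The other 92 genes of a list of the NF-κB pathway were counted in the same fits. This list was also chosen with earlier results of these data known, so its shares are not independent of them. In HCT116 after 2 μM for 6 h, 22 of the 68 tested rose and 19 fell, or 32.4% and 27.9% against 15.5% and 31.8% of all genes, with a median log2 fold change of −0.04 against −0.12 over all genes. Of the 32 further target genes listed, 14 rose, 3 fell, 3 did not pass the test and 12 were under the filter. Of 10 genes of ubiquitin editing, 0 rose and 7 fell after 2 μM, where 31.8% of all genes fell, and 0 rose and 3 fell after 10 μM, where 21.2% did. CXCL2, another neutrophil chemokine, went from 0.681 to 5.41 RPKM (2.3 ± 0.18), although reads may be split between it and its close relatives, and NUAK2, an AMPK-related kinase, from 1.21 to 6.84 (2.07 ± 0.17). TAB1, a partner of the kinase TAK1, fell by 0.67 ± 0.1 and IRAK4, a kinase of Toll-like receptor signaling, by 0.58 ± 0.11. After 10 μM for 6 h 18 of 68 rose and 15 fell, or 26.5% and 22.1% against 8.84% and 21.2%, with CXCL2 and NUAK2 again the largest rises (1.78 and 1.72) and TAB1 and TNFAIP8 the largest falls (−0.79 and −0.65). At 24 h 14 of 68 rose and 5 fell after 2 μM, or 20.6% and 7.35%, near the 16.6% and 10.8% of all genes. After 10 μM 13 rose and 9 fell, or 19.1% and 13.2%, near the 19.5% and 15.7% of all genes. LAMB3, a laminin chain, rose by 1.18 ± 0.16 and 0.96 ± 0.07, while BCL2L1, the gene of the survival protein BCL-xL, fell by 0.49 ± 0.05 and 0.63 ± 0.06.

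In Ramos more genes of the list fell than rose at 6 h. After 2.5 μM for 6 h, 7 of the 63 tested rose and 19 fell, or 11.1% and 30.2% against 17.3% and 10.7% of all genes, with a median of −0.05 against 0.03 over all genes. Of the 32 targets 1 rose, 9 fell, 5 did not pass the test and 17 were under the filter. CCL3 and CCL4, chemokines made by activated B cells, fell by 3.75 ± 0.12 and 3.38 ± 0.2 on the log2 scale, CCL3 from 19.7 to 1.01 RPKM. Both have near-identical gene copies between which reads may be split, and their levels are uncertain for that reason. SOD2, the mitochondrial superoxide dismutase, rose by 0.54 ± 0.06 and RIPK1, a kinase of TNF receptor signaling, by 0.52 ± 0.11. After 0.5 μM for 6 h 7 of 64 rose and 13 fell, or 10.9% and 20.3% against 13.8% and 9.73%, with CCL3 again the largest fall (−3.06 ± 0.16) and NFKBID, a nuclear IκB protein, the largest rise (0.66 ± 0.07). After 2.5 μM for 24 h 2 rose and 10 fell of 63, or 3.17% and 15.9% against 3.3% and 1.31%, and CCL3 was at 4.46 RPKM (−2.03 ± 0.09). After 0.5 μM for 24 h limma called 0 of 66 in either direction, with 6 higher and 0 lower without adjustment, and CCL3 was at 22.4 RPKM.

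For genes whose group means spanned at least 1 on the log2 scale within a line, the 3 genes with the most similar course over the 5 groups were found among those with a mean of at least 2 RPKM, by the root mean square difference of centred group means. In HCT116, where 11678 genes were searched, the nearest to NFKBIA were ZYX (0.0281), NR2F2 (0.0495) and FHL2 (0.0499). Those nearest to TNFAIP3 were GEM (0.0834), MAP3K14 (0.11) and FOSL2 (0.128), and those nearest to RELB were MAP2K3 (0.0969), SRF (0.119) and AREG (0.132). Those nearest to CXCL8 were NR4A1 (0.257), NR4A3 (0.279) and ATF3 (0.346). The distance is not scaled to the span of the group means, which was 4.236 for CXCL8, 1.375 for TNFAIP3 and 1.619 for RELB. In Ramos, over 10697 genes, TNFAIP3 was nearest to ST3GAL1 (0.067), HLA-DQA2 (0.0795) and ARMH1 (0.0843), and TRAF1 to TNRC6C-AS1 (0.0302), TMC6 (0.035) and CD58 (0.0454). MAP3K14 encodes the NF-κB-inducing kinase, which drives the noncanonical pathway, and was also among the 92 pathway genes, at 4.04 RPKM in untreated HCT116 and 11.1 after 2 μM for 6 h. SRF, FOSL2, NR4A1, NR4A3 and ATF3 encode transcription factors, several of them products of early response genes, and CD58 an adhesion molecule. HLA-DQA2 has a close relative with which reads may be shared. These are likenesses of 5 group means, which share libraries, and are given without a test.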

How the data were processed

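RNA was sequenced in 30 libraries with a stranded total RNA kit after ribosomal RNA removal, per the labels. The authors deposited RPKM for 57992 genes, 1 column per library. The submitters' processing notes name RSEM without a version. The aligner, genome build, annotation and filters are not given in the sources used here. Since RPKM are fractional, reads could not be counted back and depth is unknown, and the spread over 3 libraries sets the precision. GENCODE release 29 gave symbols for 57388 of the Ensembl identifiers.

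Log2(RPKM + 0.5) was fitted with limma 3.58.1 in R 4.3.3 (lmFit, then eBayes with a trend) over all genes whose RPKM averaged 0.5 or more in the libraries compared, with Benjamini-Hochberg adjustment over all of them. The threshold was an adjusted p of 0.05. There were 17 comparisons of a pair of groups and 2 interaction terms. Genes under the filter had a two-sided exact permutation test. The fit was tested on simulated data. Groups came from the labels, and no library was left out. The correlation of log2 values between replicates was 0.988 to 0.997 over 30 pairs, and 0 pairs were identical. Alternatives were pseudocounts of 0.1 and 1, no filter or a mean of at least 2 RPKM, median-ratio and equal-sum scaling, a replicate block, no trend, all groups in one fit and each library left out, and, added after seeing the data, an equal sum without RN7SL1, RN7SL2 and RN7SK. The 10 genes, the pathway list and the marker lists were chosen with earlier results of these data known. All 10 genes were named. Of the pathway list, up to 2 rises and 2 falls per treatment or time comparison with a mean of at least 2 RPKM could be named. The motif search used RefSeq promoter windows on GRCh38.p14.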

Additional observations from a re-analysis of the deposited data

Results flagged for a closer look

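In 14 cases the change of a gene from untreated differed between the lines by the interaction term (HCT116 at 2 μM minus Ramos at 2.5 μM, log2 scale, limma, adjusted p under 0.05). At 6 h the difference was 0.68 for NFKB1, 0.77 for RELB, 0.67 for NFKBIA, 2.3 for TNFAIP3, 1.25 for BIRC3, 0.81 for TRAF1, 0.46 for IER3, 4.2 for CXCL8 and −0.39 for ICAM1. At 24 h it was 0.56 for NFKB2, 1.12 for TNFAIP3, 0.76 for BIRC3, 1.07 for TRAF1 and 0.78 for CXCL8. TRAF1 was under the filter in the comparisons of HCT116 with untreated cells and CXCL8 in those of Ramos, so their 4 terms were tested only through the line in which each gene is high. The lines also differed in the nearest dose available and in what is known of the delivery of Omomyc, and the part of these in the differences was not tested.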

How the results depend on the processing

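Of 2896 recomputed fold changes of single genes, 2752 kept direction and side of the threshold, 113 lost the call, 30 gained one and 1 reversed. The reversal was NFKB1 in the 24 h interaction at an equal sum of RPKM (−0.31, adjusted p = 0.0213, from 0.05). Counts of called genes moved by over 1.5 times as follows. At an equal sum, the count was 3 for HCT116 10 μM 6 h, 2 for 2 μM 24 h, 3 for 10 μM 24 h, 3 for 10 μM 24 h against 6 h, 3 for the Ramos 24 h doses and 5 for the 6 h interaction. The equal sum without RN7SL1, RN7SL2 and RN7SK, chosen after seeing the data, moved HCT116 10 μM 24 h to 2 and no other count. With no filter the count was 2 for HCT116 2 μM 24 h, 1 for Ramos 2.5 μM 24 h and 1 for the Ramos 24 h doses. Without the trend it was 1 for Ramos 2.5 μM 24 h and 0 for the Ramos 24 h doses, and with all groups in one fit it was 1 for HCT116 2 μM 24 h. The cause was not tested. Leaving out single libraries, the count ranged from 2 to 3 for HCT116 2 μM 24 h, 0 to 1 for HCT116 10 μM 24 h, 1 to 5 for Ramos 2.5 μM 24 h, 0 to 1 for the HCT116 6 h doses and 3 to 6 for the Ramos 24 h doses. The replicate block moved Ramos 2.5 μM 24 h from 4 to 2 and no other count by over 1.5 times. Replicates were treated as sharing only a number. In 0 of 17 comparisons were every pair's deviations correlated above 0.1 (mean −0.17 to 0.1). With 3 libraries a group this check cannot exclude a common culture or preparation.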
